A study of Mus musculus with 8 samples.

Results

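The cytochrome P450 genes measured in mouse olfactory mucosa were described before and after loss of the LIM-homeodomain transcription factor Lhx2 from mature olfactory sensory neurons (OSNs). Members were all array transcript clusters that mapped to a single gene symbol made of Cyp, a number, a letter and a number, which gave 81 clusters for 81 genes among 23410 clusters that carried a gene symbol. Another 13 clusters with a Cyp symbol fell outside this definition, 7 because they carried several symbols (Cyp2a5 and Cyp2a4 shared 1 of these) and 6 because their single symbol had another form.

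P450s are haem enzymes that insert oxygen into lipophilic molecules. In the olfactory mucosa they are concentrated in sustentacular cells and Bowman's gland cells, which surround the neurons, where they are known to modify inhaled chemicals and odorants. Electrons reach the microsomal enzymes through P450 oxidoreductase and cytochrome b5, and other family members make or break down steroids, bile acids, vitamin D, retinoic acid and eicosanoids.

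Each of 8 mice at postnatal day 26, of mixed 129 x C57BL/6J background, gave 1 olfactory mucosa and 1 Affymetrix Mouse Gene 1.0 ST array. The 4 conditional knockouts were OmpCre:Lhx2(fl/fl), with Cre driven from the Omp gene of mature OSNs, and loxP sites around the first exons of Lhx2. Among the 4 littermate controls, 3 were OmpCre:Lhx2(fl/+) and 1 (control replicate 1) was Lhx2(fl/+) without Cre, so every mouse carried at least 1 floxed allele. The study described recombination as incomplete, and both sexes were used. Values are log2 signals of a cluster, and differences are log2 knockout minus control. A gene was called at a Benjamini-Hochberg adjusted p under 0.05 in limma over all 23410 clusters.

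The targeted gene and the transcripts of mature OSNs were lower in the knockouts. Lhx2 read 12.39, 12.33, 12.29 and 12.33 in controls and 12.03, 11.99, 12.17 and 12.16 in knockouts, a difference of -0.25 ± 0.06 (SE, n = 4 and 4, limma adjusted p = 0.0383), a call lost in 7 of 8 leave-outs of a single mouse. The Lhx2 value combines exons inside and outside the deleted part. Of 16 measured mature OSN markers 15 were called lower, beside 6.29% of all clusters, with a median difference of -0.49. Their mean per array ran from 12.42 to 12.44 in controls and from 11.77 to 11.85 in knockouts. None of 11 sustentacular cell markers and none of 10 Bowman's gland markers was called (0 and 0 also at an unadjusted p under 0.05), with mean signals of 11.65 to 11.79 and 11.71 to 12.29 in controls and of 11.70 to 11.85 and 11.55 to 12.22 in knockouts. Mouse numbers in the sample titles began with 5, 7 or 9, and these title series were treated as a possible batch. Gland transcripts such as Obp1a read low on both arrays of series 7 (12.60 in control 3 and 12.51 in knockout 3, against 13.12 to 13.73 on the other arrays). In whole mucosa, fewer cells of a type and less RNA per cell cannot be told apart.

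Most P450 clusters gave low signal, and a few were among the brightest on the array. In controls, 18 of 81 (22.2%) lay above 8.53, the median over all named clusters, 13 had a mean above 10 and 16 a mean below 5. Cyp2g1, an enzyme of the olfactory mucosa that oxidises sex steroids, had the highest control mean of the members, 14.06 ± 0.03 (SD, n = 4), and lay 0.56 below the largest value in the whole table. Cyp2f2, which activates naphthalene in airway epithelium, read 13.84 ± 0.02, and Cyp1a2, which oxidises aromatic amines, read 12.79 ± 0.08. These signals come from different probes and are not transcript abundances. Cyp3a11, a drug hydroxylase, read 4.08 ± 0.08. All 8 hepatocyte markers, albumin included, had control means below the array median (at most 7.73).

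**Figure D1:**
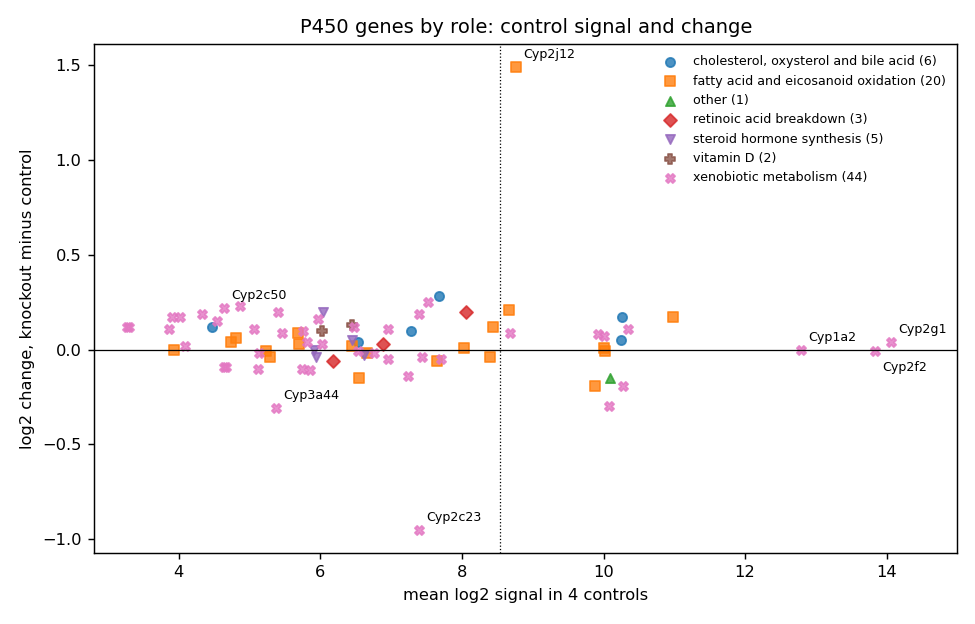
Mean log2 signal in the 4 controls (x axis) against the log2 difference knockout minus control (y axis) for 81 P450 genes, with symbols for 7 role groups and a dotted line at the median signal of all named clusters, 8.53. Cyp2j12 at 1.49 and Cyp2c23 at -0.95 stand away from the rest, and Cyp2g1, Cyp2f2 and Cyp1a2 lie at the right, close to 0.

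Loss of Lhx2 from mature OSNs left the P450s with the highest signals near their control signals. Cyp2g1 read 14.05, 14.03, 14.11 and 14.07 in controls and 14.11, 14.06, 14.11 and 14.12 in knockouts. Cyp2f2 read 13.82, 13.86, 13.82 and 13.84 in controls and 13.77, 13.81, 13.87 and 13.85 in knockouts. Cyp1a2 read 12.77, 12.88, 12.69 and 12.81 in controls and 12.79, 12.79, 12.70 and 12.87 in knockouts. The groups overlapped for each of these genes. The 95% interval of the difference ran from -0.08 to 0.15 for Cyp2g1 (0.945-fold to 1.11-fold). It ran from -0.13 to 0.11 for Cyp2f2 and from -0.14 to 0.15 for Cyp1a2. These intervals bound differences in signal. Cyp2g1 and Cyp2f2 lay only 0.56 and 0.81 below the largest value of all clusters. Whether signals this high follow a change in transcript in full was not tested, so the intervals may not bound that change.

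Across the family, 4 of 81 members (4.94%) were called, against 8.39% of all clusters tested. Lower calls went to Cyp2c23 and Cyp3a44 (6.29% of all clusters were called lower), and higher calls to Cyp2j12 and Cyp2c50 (2.1% of all clusters were called higher). At an unadjusted p under 0.05 there were 10 members (12.3%), against 18.2% of all clusters. All 4 knockouts lay below all 4 controls for 2 members and above them for 3, in all 6.17% of members against 14.3% of all clusters (7.83% below and 6.42% above). The median difference was 0.04 over the members and 0.05 over all clusters. For 71 of the 81 members the 95% interval lay within 0.5 of 0, a 1.41-fold limit, and for 79 within 1.

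These counts depend on the scale. Centring each array on the mature OSN list moved the median of all clusters to 0.66 and that of the members to 0.65. The size of that shift comes from these 16 markers, and it is not the scaling of the study, which used a longer list not used here. Over its own list the study reported a smaller average fall. Centring on the 16 markers used here called 80 members higher and 1 lower, beside 93.6% and 3.25% of all clusters. Centring on the array median gave 3 higher and 1 lower, beside 4.39% and 5.73% of all clusters. Quantile normalization gave 1 higher and 2 lower, beside 3.04% and 6.31%. Centring on the sustentacular and gland lists gave 1 higher and 1 lower, beside 0.842% and 4.77%. Cyp2c23 was called lower and Cyp2j12 higher under each of these scalings.

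**Figure D2:**
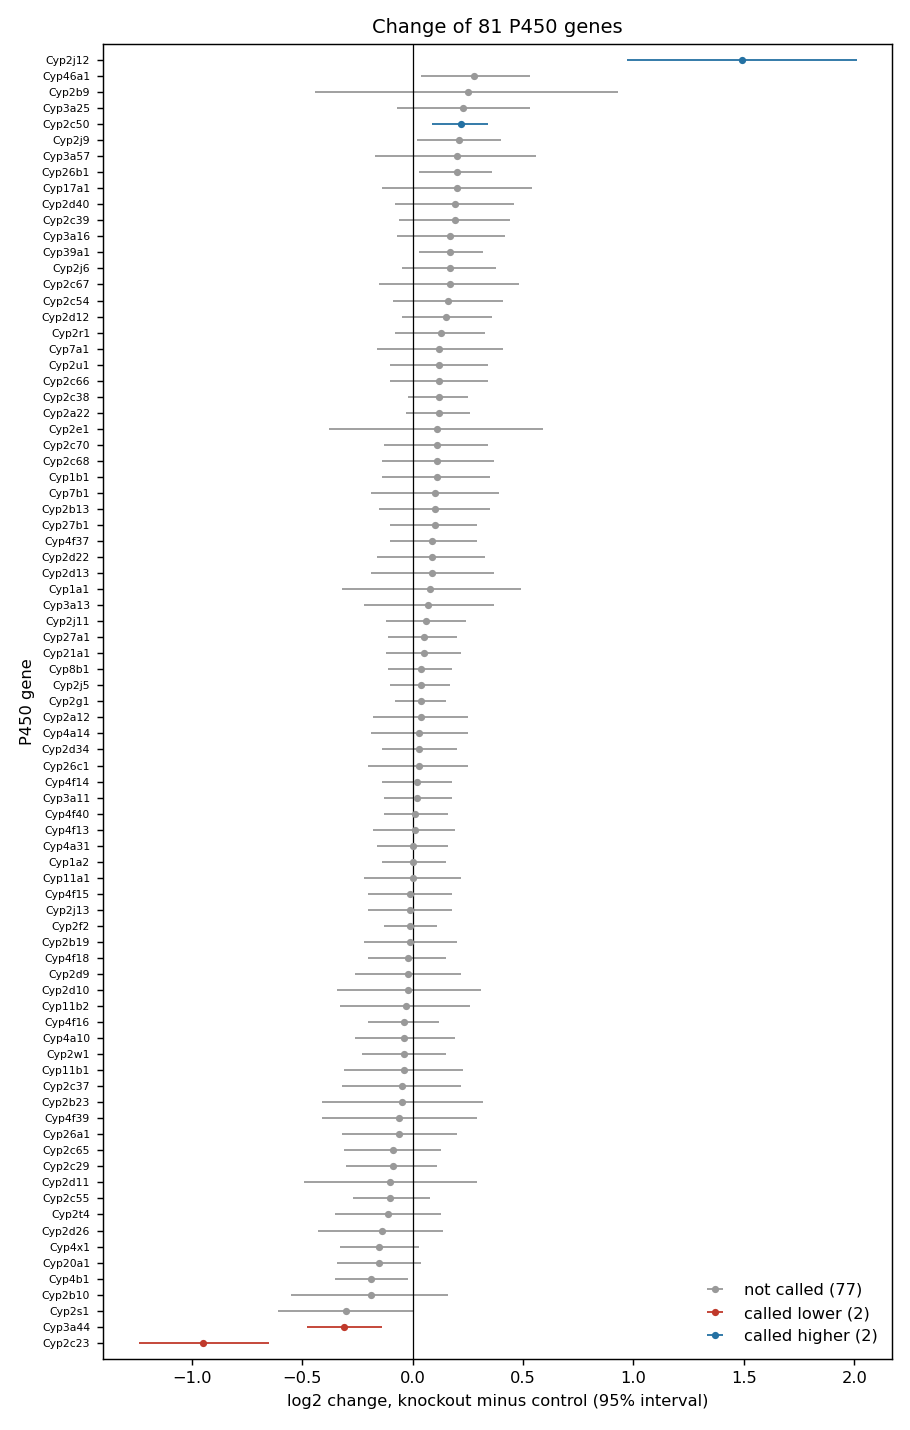
Log2 difference knockout minus control (x axis, points with 95% intervals from limma, n = 4 and 4) for each of 81 P450 genes (y axis), ordered by the difference. Red marks the 2 genes called lower, blue the 2 called higher and grey the 77 not called, whose points lie between -0.30 and 0.28.

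Cyp2j12 rose more than any other member. It belongs to the CYP2J subfamily, whose studied enzymes turn arachidonic acid into epoxides. Its cluster on chromosome 4 (identifier 10514491) read 8.80, 8.91, 8.41 and 8.90 in controls and 10.95, 10.03, 9.70 and 10.30 in knockouts. The lowest knockout stood well above the highest control. The difference was 1.49 ± 0.23 (SE, n = 4 and 4), a 2.81-fold increase with a 95% interval of 1.95-fold to 4.03-fold, and the limma adjusted p was 0.0020. Within title series it was 1.63 in series 5 (2 mice a group), 1.29 in series 7 and 1.40 in series 9 (1 mouse a group each). Leaving out any 1 mouse gave values from 1.25 to 1.67, all called.

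The other 5 CYP2J genes measured lie beside it on chromosome 4, and none was called. In chromosomal order around Cyp2j12, Cyp2j13 differed by -0.01 ± 0.09, Cyp2j11 by 0.06 ± 0.08, Cyp2j6 by 0.17 ± 0.10, Cyp2j9 by 0.21 ± 0.08 and Cyp2j5 by 0.04 ± 0.06 (SE). Cyp2j6, the brightest of them, read 11.12, 10.99, 10.78 and 11.02 in controls and 11.34, 11.17, 10.98 and 11.07 in knockouts, and its groups overlapped. These genes are close paralogs, so probes of 1 gene may in part read another.

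**Figure D3:**
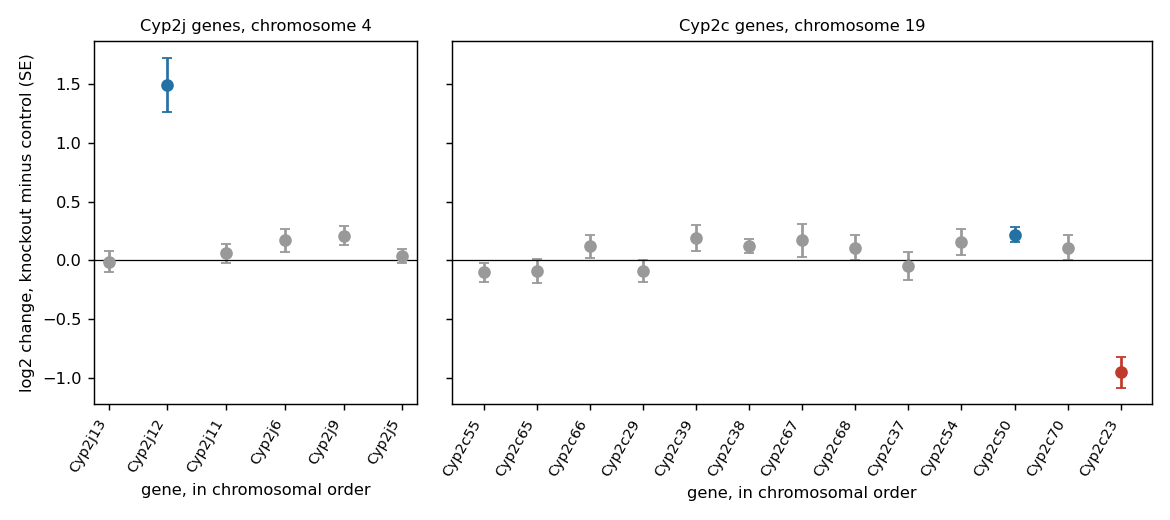
Log2 difference knockout minus control (y axis, points with SE from limma, n = 4 and 4) for the 6 measured CYP2J genes of chromosome 4 and the 13 measured CYP2C genes of chromosome 19, in chromosomal order (x axis). Colours mark genes called higher (blue) and lower (red), and the 5 neighbours of Cyp2j12 lie between -0.01 and 0.21.

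Start-site windows of the called Cyp2j12 and the uncalled Cyp2j6 are shown side by side, with that of Cyp1a2 as a bright gene near 0. Each holds 250 bases before and 50 after the annotated start, 5′ to 3′ on the gene's strand (RefSeq, GRCm38.p6). Capitals mark matches to the motifs searched. Cyp2j12 lies at chr4:96141103-96141402, minus strand, Cyp2j6 at chr4:96553602-96553901, minus strand, and Cyp1a2 at chr9:57683606-57683905, minus strand.
Cyp2j12: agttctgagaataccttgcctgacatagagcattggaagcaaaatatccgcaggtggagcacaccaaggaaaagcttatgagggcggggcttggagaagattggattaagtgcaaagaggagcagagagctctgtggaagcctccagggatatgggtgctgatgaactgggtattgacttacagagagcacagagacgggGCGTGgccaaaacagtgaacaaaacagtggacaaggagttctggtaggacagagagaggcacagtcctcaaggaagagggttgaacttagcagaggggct
Cyp2j6: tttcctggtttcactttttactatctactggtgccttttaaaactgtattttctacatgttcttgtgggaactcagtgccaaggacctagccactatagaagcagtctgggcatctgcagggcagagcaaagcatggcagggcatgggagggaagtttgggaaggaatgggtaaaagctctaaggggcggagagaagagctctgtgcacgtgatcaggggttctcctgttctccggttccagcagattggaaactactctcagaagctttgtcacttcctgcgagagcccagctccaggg
Cyp1a2: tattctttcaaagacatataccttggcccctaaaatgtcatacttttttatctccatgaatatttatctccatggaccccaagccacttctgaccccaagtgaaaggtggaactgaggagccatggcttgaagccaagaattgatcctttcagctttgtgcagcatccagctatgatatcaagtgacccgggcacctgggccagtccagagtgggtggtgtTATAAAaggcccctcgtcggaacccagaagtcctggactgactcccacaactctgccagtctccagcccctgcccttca

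The motifs were the homeodomain core TAATTA, the homeodomain core TAATTG, the Olf1/Ebf site, the dioxin response core GCGTG and the TATA box TATAAA, each searched on both strands with no allowance for overlap between motifs. The Cyp2j12 window held GCGTG 50 bases before the start, the Cyp1a2 window held TATAAA 29 bases before the start, and the Cyp2j6 window held none of these letters. GCGTG also stood in windows of Cyp2j13 and Cyp2j9, neighbours of Cyp2j12 that were not called. Windows were found for 62 of the 81 members (70 windows), and none for Cyp2c23 or Cyp2g1. TATAAA stood in 35.7% of the members' windows and 13.6% of all 32851 windows, GCGTG in 21.4% and 32.4%, TAATTA in 5.71% and 5.29%, TAATTG in 5.71% and 8%, and the Olf1/Ebf site in 0% and 0.904%. These are matches of letters and not binding sites.

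Cyp2c23 fell more than any other member. Its product makes epoxides of arachidonic acid, best known from kidney. The cluster on chromosome 19 (identifier 10467897) read 7.78, 7.19, 7.26 and 7.32 in controls and 6.44, 6.40, 6.27 and 6.66 in knockouts. Every knockout value was under every control value, and the highest control was the mouse without Cre. The difference was -0.95 ± 0.13 (SE, n = 4 and 4), 0.519-fold of control with a 95% interval of 0.423-fold to 0.637-fold, and the limma adjusted p was 0.000919. It was -1.06, -0.99 and -0.66 in title series 5, 7 and 9, and -0.82 without control 1. The mature OSN markers differed on the same arrays by -2.02 to -0.11, with a median of -0.49, so Cyp2c23 lay within their range. Their part in the result was not tested. After centring on those markers the difference was -0.33 with a limma adjusted p of 0.0296. That centring called 93.6% of all clusters higher and 3.25% lower, so this adjusted p does not compare with that of the main fit.

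Among the other 12 CYP2C genes of chromosome 19 only Cyp2c50 was called. Its cluster was dim, at 4.70, 4.62, 4.66 and 4.57 in controls and 4.91, 4.85, 4.85 and 4.81 in knockouts. The groups did not overlap but were separated by little. The difference was 0.22 ± 0.06 (SE, n = 4 and 4, limma adjusted p = 0.0442). No leave-out of a single mouse kept this call (adjusted p from 0.071 to 0.118). The 11 uncalled CYP2C genes differed by -0.10 to 0.19.

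Cyp3a44, of the CYP3A drug and steroid hydroxylases, was also called lower. It read 5.53, 5.28, 5.29 and 5.40 in controls and 4.93, 5.06, 5.16 and 5.10 in knockouts. No knockout reached the lowest control, and the difference was -0.31 ± 0.08 (SE, n = 4 and 4, limma adjusted p = 0.0328). The call was lost in 5 of 8 leave-outs, without control 1, control 4, knockout 1, knockout 2 or knockout 4, with an adjusted p of up to 0.102. With Xist, which marks female mice, as a covariate the adjusted p was 0.0508. Another 2 clusters carried the symbol Cyp3a44 together with near-identical CYP3A genes, so its signal cannot be assigned to 1 gene with certainty. The other 5 CYP3A members were not called, among them Cyp3a13 with a control mean of 10.01 and a difference of 0.07 ± 0.13.

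**Figure D4:**
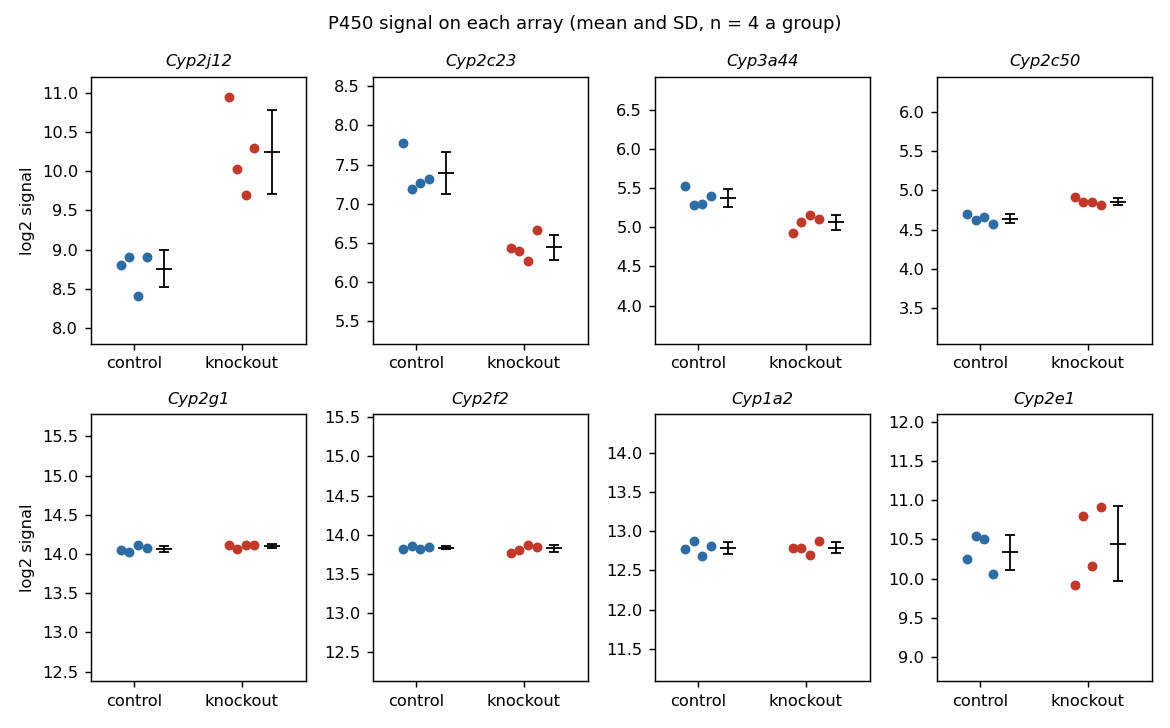
Log2 signal of 8 P450 genes on each array (points, replicates 1 to 4 from left to right) with the group mean and SD (black, n = 4), each panel spanning the same height on the log2 scale. Controls and knockouts are apart for Cyp2j12, Cyp2c23, Cyp3a44 and Cyp2c50 and overlap for Cyp2g1, Cyp2f2, Cyp1a2 and Cyp2e1.

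The genes of xenobiotic metabolism made up 44 members, with a median difference of 0.05. Of these, 2 were called lower (Cyp2c23 and Cyp3a44) and 1 higher (Cyp2c50), beside 6.29% and 2.1% of all clusters. Roles were assigned by the family number and letter of the symbol. Cyp2c23 was therefore counted here and not under eicosanoid oxidation, although its product makes epoxides of arachidonic acid. Cyp2e1, which oxidises ethanol and small solvents, read 10.25, 10.54, 10.50 and 10.06 in controls and 9.92, 10.80, 10.16 and 10.91 in knockouts. It varied among knockouts more than it differed between groups, with differences of -0.04, -0.34 and 0.85 in title series 5, 7 and 9. Cyp2b10, a target of the xenobiotic receptor CAR, read from 9.94 to 10.78 in controls and from 9.91 to 10.20 in knockouts. Cyp2s1, a P450 of epithelia, read 10.28, 10.30, 9.74 and 9.96 in controls and 9.93, 9.81, 9.53 and 9.80 in knockouts. Its difference of -0.30 ± 0.13 was not called (limma adjusted p = 0.271), but was when title series entered the fit (adjusted p = 0.0228). Cyp2b9 had the largest spread of the members within controls (SD 0.60), from 6.63 in control 1 to 7.91 in control 3. The median SD within controls was 0.15 over the members and 0.12 over all clusters.

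Fatty acid and eicosanoid oxidation, assigned in the same way and so without Cyp2c23, took in 20 members. Their median difference was 0.01, and Cyp2j12 was the 1 called (higher, as were 2.1% of all clusters). Cyp4b1, which activates lung toxins, read 9.94, 9.98, 9.89 and 9.70 in controls and 9.69, 9.64, 9.69 and 9.75 in knockouts. Only control 4 lay within the knockout values, and the difference of -0.19 ± 0.07 had a limma adjusted p of 0.195. Without control 4 the limma adjusted p was 0.038, and in 7 of 8 leave-outs Cyp4b1 was uncalled (adjusted p up to 0.429). Cyp4f15, of the family that inactivates leukotrienes, differed by -0.01 ± 0.09 from a control mean of 10.02.

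None of the 6 members of cholesterol, oxysterol and bile acid metabolism was called. An unadjusted p under 0.05 was found for 2 of them, against 18.2% of all clusters. Cyp39a1, an oxysterol hydroxylase, read 10.37, 10.23, 10.20 and 10.23 in controls and 10.48, 10.51, 10.39 and 10.35 in knockouts. These groups overlapped, since control 1 lay above knockout 4. Its difference was 0.17 ± 0.07 (limma adjusted p = 0.181), and centring on the array median brought the adjusted p to 0.044. Cyp46a1, the neuronal cholesterol hydroxylase, named after its values were seen, differed by 0.28 ± 0.11 (limma adjusted p = 0.198), with 0.28, 0.27 and 0.30 in the title series. It was called higher when title series entered the fit and with array weights. Cyp27a1, the mitochondrial sterol hydroxylase, differed by 0.05 ± 0.07 and Cyp7b1, another oxysterol hydroxylase, by 0.10 ± 0.13.

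The 3 retinoic acid hydroxylases were not called. Cyp26b1 was the only 1 of them with separate groups, at 8.04, 8.08, 7.87 and 8.20 in controls and 8.26, 8.22, 8.26 and 8.24 in knockouts. That separation rests on a narrow margin over control 4, and the difference was 0.20 ± 0.07 (limma adjusted p = 0.181). Cyp26c1 differed by 0.03 ± 0.10. The 5 members of steroid hormone synthesis had control means near the dim end, such as 6.61 for Cyp11b2, the aldosterone synthase, and 6.44 for Cyp21a1, the adrenal steroid hydroxylase. None was called, and Cyp11b2 differed by -0.03 ± 0.13. Vitamin D hydroxylases Cyp2r1 and Cyp27b1 differed by 0.13 ± 0.09 and 0.10 ± 0.09, and the orphan enzyme Cyp20a1 by -0.15 ± 0.08. These were not called either.

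Genes that serve the P450s were read from lists of partners. None of 9 measured electron partners was called (1 at an unadjusted p under 0.05), and cytochrome b5 (Cyb5a) and its reductase (Cyb5r3) differed by 0.04 ± 0.06 and -0.01 ± 0.07. P450 oxidoreductase was not among the 9, so its signal is not known here. Of 11 genes of haem synthesis and turnover, 1 was called, beside 8.39% of all clusters (3 at an unadjusted p under 0.05, against 18.2%). Ppox, the mitochondrial oxidase of the penultimate step of haem synthesis, read 10.10 ± 0.13 (SD) and at most 10.28 in controls, and 11.09, 10.79, 11.11 and 11.31 in knockouts. All knockouts lay above all controls, and the difference was 0.97 ± 0.11 (SE, n = 4 and 4, limma adjusted p = 0.000227). The rate-limiting Alas1 differed by 0.01 ± 0.07 and the final enzyme Fech by -0.03 ± 0.08. Hmox1 differed by -0.40 ± 0.11 (limma adjusted p = 0.0615) and Blvrb by 0.19 ± 0.05 (limma adjusted p = 0.0677), both uncalled.

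Of 16 regulators of xenobiotic genes, 1 was called lower, beside 6.29% of all clusters. At an unadjusted p under 0.05 there were 2, against 18.2% of all clusters. Nfe2l2, which drives the antioxidant response, read 12.29, 12.34, 12.15 and 12.20 in controls and from 11.71 to 12.04 in knockouts. The groups did not overlap, and the difference was -0.32 ± 0.08 (SE, n = 4 and 4, limma adjusted p = 0.0414), a call lost in 6 of 8 leave-outs. The dioxin receptor Ahr differed by -0.07 ± 0.11, and the xenobiotic receptors Nr1i2 and Nr1i3 by 0.16 ± 0.08 and 0.05 ± 0.10. Rxra differed by -0.33 ± 0.11 and was not called (limma adjusted p = 0.133). None of 16 conjugating and other detoxification enzymes was called (1 at an unadjusted p under 0.05), including Sult1d1 at -0.11 ± 0.06 and Gstm1 at -0.12 ± 0.05. Sult1c1, Fmo2, Gstm2 and Aldh1a7 stood both in this list and among the sustentacular cell markers, so the lists are not independent. None of 5 P450s outside the symbol definition was called (0 at an unadjusted p under 0.05), with Cyp4a12b at 0.05 ± 0.23 and Ptgis, the prostacyclin synthase, at -0.09 ± 0.17.

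Markers of other cell types were read beside these results. None of the basal cell (8), macrophage (7), blood (4), connective tissue, bone and cartilage (8), endothelium (5) and hepatocyte (8) markers was called. At an unadjusted p under 0.05 there were 1, 1, 0, 0, 0 and 1 of them, against 18.2% of all clusters. Of 8 respiratory epithelium markers, Tekt1 and Foxj1, which belong to motile cilia, were called lower. Of 12 immature OSN markers 1 was called lower and 1 higher. Over all clusters, 6.29% were called lower and 2.1% higher. Xist was above 12 in control 4, knockout 2 and knockout 4, where the Y-linked Kdm5d read 6.25 to 6.36, so the sexes were unevenly spread over the groups. On the other arrays Xist ran from 6.14 in knockout 1 to 9.35 in knockout 3. As a covariate it was therefore graded and not a plain label of sex. With Xist as a covariate, 1 member was called lower (Cyp2c23) and 2 higher (Cyp2j12 and Cyp2c50), beside 5.98% and 1.79% of all clusters.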

How the data were processed

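The authors deposited log2 expression values per transcript cluster, made with Affymetrix Expression Console from equal amounts of total RNA (version and settings: not given in the sources used here). They entered the fit unchanged, and arrays give no counts, so the number of arrays limits the precision. Of 35557 clusters, 23410 had a symbol in the platform annotation (21698 of 21789 single symbols matched by Entrez ID to RefSeq, GRCm38.p6) and were tested in limma 3.58.1 (R 4.3.3) with lmFit and eBayes, without covariates, with Benjamini-Hochberg adjustment. The fit was tested on simulated data. Each sample was a separate mouse, and groups came from the phenotype labels. Named genes were the called members, the 12 with the highest control mean, members with known olfactory or metabolic roles, the 2 brightest of each role, and called or brightest genes of partner lists. Members and lists were chosen with earlier results of these data known. Cyp2a4 and Cyp2a5 shared a cluster and are given no value.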

Additional observations from a re-analysis of the deposited data

Results flagged for a closer look

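Among 72 groups of 4 arrays tested for 1 array far from the other 3 by Dixon's criterion, 5 were found, and chance gives about 1 in 20. In controls, Cyp39a1 read 10.37 in control 1 against 10.20 to 10.23 in the others. Cyp4f15 read 10.18 in control 3 against 9.95 to 9.97. Cyb5a read 12.66 in control 4 against 12.55 to 12.57, and in knockouts 12.68 in knockout 2 against 12.60 to 12.62. Cyb5r3 read 12.39 in control 3 against 12.58 to 12.61. None of these genes was called.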

How the results depend on the processing

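Cyp2c23 and Cyp2j12 were called in the same direction under every setting that tested them. Cyp2c23 was too dim for the filter on clusters above the median signal. Calls lower and higher were 2 and 2, and became 1 and 3 with median centring, 2 and 1 with quantile normalization, 1 and 80 with centring on the mature OSN list, 1 and 1 on the sustentacular and gland lists, 3 and 3 with title series as a blocking factor (7.33% and 4.16% of all clusters), 1 and 2 with Xist as a covariate, 4 and 3 with array weights (7.38% and 4.64%), 0 and 1 among the 19 members above the median signal (6.49% and 2.84%), 1 and 2 by the methods' t-test with adjustment (5.41% and 1.87%), and 2 and 1 without both mice of title series 7 (5.79% and 1.79%), chosen after seeing the data. Leaving out 1 mouse gave 1 to 2 lower and 1 to 1 higher, with 6.87% to 8.33% of all clusters called. The median difference was 0.09 with median centring and 0.65 with the mature OSN list (0.11 and 0.66 over all clusters), and groups lay apart for 1 member below and 5 above with median centring (6.45% and 13.5% of all clusters). With the mature OSN list the difference turned positive for Cyp3a44 (0.30), Cyp2f2 (0.61), Cyp2b10 (0.42), Cyp20a1 (0.46), Cyp2s1 (0.31), Cyp4f15 (0.61), Cyp4b1 (0.43), Cyp11b2 (0.58), Cyb5r3 (0.60), Nfe2l2 (0.29), Gstm1 (0.50), Sult1d1 (0.50), Ptgis (0.53) and Lhx2 (0.37). By construction this scaling adds the fall of that list to every cluster. Over the 36 named genes and the other settings, 551 values stayed on their side of the threshold, some uncalled ones near 0 with the other sign, 43 lost a call and 6 gained one. Other causes were not tested. Replicate numbers follow accession order and pair no mice, so only title series served as a block. Averaging several clusters of a gene was not run, since each named gene was read from 1 cluster with a single symbol. Clusters shared with other genes, such as those of Cyp3a44, were left out. Adding Cyp51 and symbols with a further letter (84 members) left 2 and 2. Dim clusters near background limit what their differences can show.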
